A study of Mus musculus with 6 samples.

Results

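The 39 genes described here encode the core machinery of macroautophagy and the proteins that set or carry out the activity of the kinase complex mTORC1. They were taken by name from a deposited expression table of 54532 genes, and all 39 were found, each as 1 protein-coding gene. The cells came from the tibial marrow of mice aged 12 weeks and were selected for CD11b, giving 3 libraries labelled Tshr+/+ (wild type) and 3 labelled Tshr-/-, for the gene of the receptor of thyroid-stimulating hormone. A second label calls the latter Tshr knockdown, with no word on what was altered in the gene. CD11b is an integrin chain carried by neutrophils, monocytes and macrophages. A treatment label names osteoclast differentiation, with the time given as none, and the protocols describe isolation only. The title of the series names AMPK signalling in osteoclasts, and AMPK is a kinase that acts on both of the pathways described here. The design compares expression between the genotypes.

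Autophagy wraps cytoplasm in a double membrane and delivers it to the lysosome. The ULK1 kinase complex starts the process, the VPS34 lipid kinase complex marks the forming membrane, and conjugation enzymes attach proteins of the ATG8 family to it. Well-fed cells keep mTORC1 active at the lysosome, where it phosphorylates ULK1 and the transcription factor TFEB and so restrains autophagy, while AMPK acts in the opposite direction. In osteoclasts, several proteins of the conjugation machinery are also known to serve the secretion of lysosomal enzymes at the bone surface.

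Expression is given as FPKM, fragments scaled to gene length and to library size. Comparisons of level between genes below hold only as far as the deposited gene lengths match the transcripts present, which was not tested. Fragments assigned to genes numbered 14698126 to 17976477 per library. Tshr itself had 0.537, 0.552 and 0.405 FPKM in Tshr+/+ 1, 2 and 3, against 0.414, 0.297 and 0.00825 FPKM in those labelled Tshr-/- 1, 2 and 3. The library labelled Tshr-/- 3 held 1 fragment of Tshr, against 40 and 25 in the other two with that label. An exact permutation test of the means, two-sided, gave p = 0.2, and no split of 3 against 3 can give less than 0.1. Whole-gene values thus do not bear out the label of the libraries Tshr-/- 1 and 2, and every direction below is that of the labels. Without these 2 libraries the median log2 fold change of the 39 genes was -0.10, against -0.01 over all genes tested in that fit. That fit has 1 Tshr-/- library and takes its spread from Tshr+/+ alone, so it says nothing on stability. Against the Tshr+/+ mean, the median over the 39 genes was -0.14 in Tshr+/+ 3 and -0.10 in Tshr-/- 3. The summed level of 9 neutrophil markers ranged from 109247 to 133031 FPKM in Tshr+/+ and from 89191 to 134882 FPKM in Tshr-/-. Itgam, the gene of CD11b, lay between 87.4 and 134 FPKM, and no gene of any marker list was at 0 in every library. The sum of 6 T and NK cell markers ranged from 61.3 to 77.9 FPKM in Tshr+/+ and from 75.3 to 95.9 FPKM in Tshr-/-, most of it from Nkg7, while Cd3e stayed at or under 0.0444 FPKM. Of 7 osteoclast markers 3 passed the filter described below. The sum of all 7 ranged from 1024 to 1127 FPKM in Tshr+/+ and from 831 to 1488 FPKM in Tshr-/-, most of it from Mmp9. Ctsk ranged from 3.30 to 37.4 and Acp5 from 5.12 to 29.7 FPKM, each highest in Tshr-/- 2, and Calcr was listed at 0 in 5 of 6 libraries. In a mixed population such as this, fewer cells of a type and less RNA per cell cannot be told apart.

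No difference between the genotypes passed the test in any of the 39 genes. Each passed the filter of at least 1 FPKM in at least 3 libraries, 19 had a log2 fold change above 0 and 20 below, and the median was -0.005, against -0.01 over all 10913 genes tested. The log2 fold changes ran from -0.26 for Map1lc3a to 0.22 for Ulk2. The limma model called 0 of 39 at an adjusted p under 0.05, beside 0 of all genes tested (0%), and the adjusted p was 0.9997 for each of the 39. At an unadjusted p under 0.05 limma had 0 of the 39 genes and 317 of all genes. The voom method on whole fragments also called 0 of the 39 and 0 of all genes.

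The 95% interval of the log2 fold change lay within 2-fold in either direction for all 39 genes, against 90.3% of all genes tested. It lay within 1.5-fold for 31 of the 39, or 79.5%, against 66.6% of all genes tested. The widest reached were Sqstm1 (1.76-fold), Map1lc3a (1.63-fold) and Ulk1 (1.63-fold). With same-numbered libraries paired, 38 of the 39 intervals lay within 1.5-fold (all genes 77.6%), and the error of Sqstm1 was 0.12 in place of 0.26. Without the libraries labelled Tshr-/- 1 and 2, 33 of 39 lay within 2-fold (all genes 74.1%) and 4 within 1.5-fold (all genes 26.8%). The interval of Sqstm1 then reached 2.93-fold. Fold changes and intervals are on the scale log2(FPKM + 1), which understates the change of low genes.

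**Figure D1:**
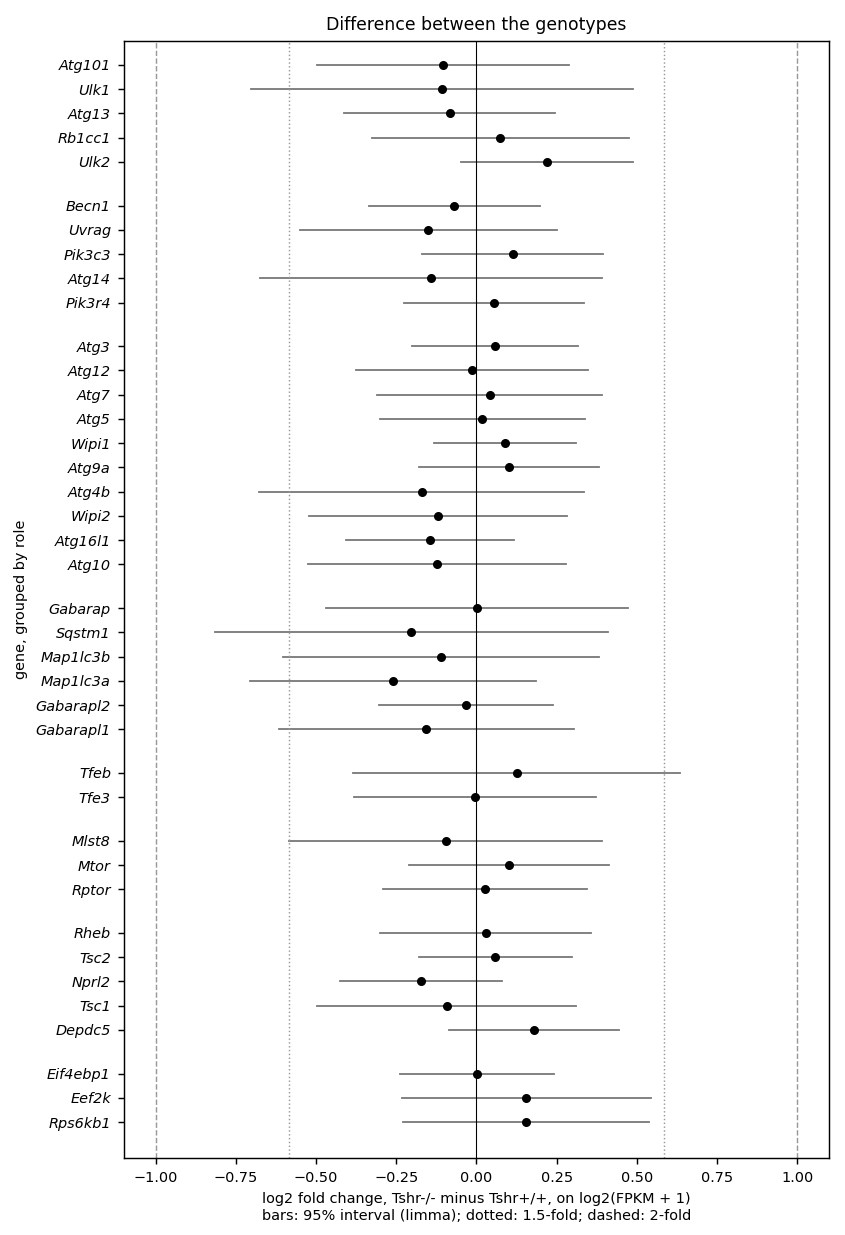
Log2 fold change between the libraries labelled Tshr-/- and Tshr+/+ (points; above 0 is higher in Tshr-/-) with the 95% interval of limma (bars) for the 39 genes, grouped by role; dotted and dashed lines mark 1.5-fold and 2-fold. Every bar crosses 0 and none reaches 2-fold, and 8 of 39 cross a 1.5-fold line.

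Groups of 3 values that did not overlap were seen for 3 of the 39 genes, a share of 7.69%, beside 6.77% of all genes. Ulk2 and Depdc5 were higher in every library labelled Tshr-/- (2 of 39, beside 3.23% of all genes), and Nprl2 was lower (1 of 39, beside 3.55%). The direction was also read within libraries that carry the same number in their titles. In 4 genes (Ulk2, Atg3, Wipi1 and Depdc5) the Tshr-/- value lay above its Tshr+/+ partner in each of the 3 pairs, beside 12.2% of all genes, and in 3 genes (Atg101, Map1lc3a and Nprl2) it lay below in each, beside 14.5%. These shares, 10.3% and 7.69%, are no larger than those of all genes.

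The 39 genes spanned more than 2 orders of magnitude in level. Averaged over the 6 libraries, 11 lay above 20 FPKM, 18 between 5 and 20, and 10 under 5, with a median of 8.26 FPKM, against 6.16 FPKM for all genes tested. Gabarap stood highest at 218 FPKM and above 98.2% of tested genes. Atg10 stood lowest at 1.29 FPKM, above 7.48% of tested genes. Fragments of a member in a library ranged from 25, for Atg10, to 9147, and 37 of the 39 genes had at least 100 in every library. The coefficient of variation over the 6 libraries had a median of 13% for these genes and 15.9% for all genes tested, and ran from 4.85% for Wipi1 to 28.7% for Atg14.

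**Figure D2:**
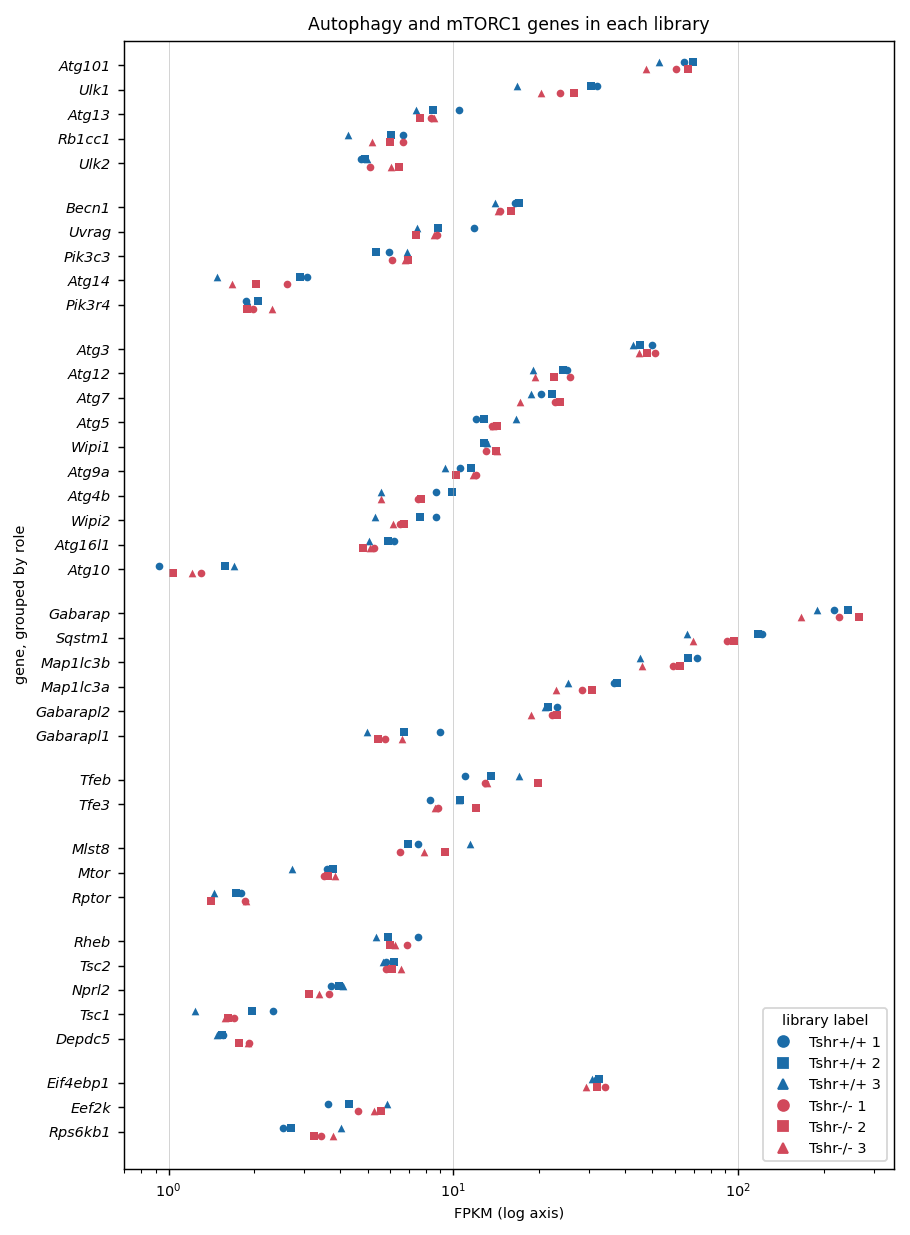
FPKM (log axis) of the 39 genes in each library, grouped by role; blue marks the libraries labelled Tshr+/+, red those labelled Tshr-/-, and the marker shape the number in the title. Colours intermingle for most genes, Gabarap sits highest and Atg10 lowest, and the triangles (number 3) lie at the left of many rows.

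The ULK1 complex joins a kinase, ULK1 or its paralog ULK2, to the scaffolds ATG13, ATG101 and FIP200 (encoded by Rb1cc1). None of its 5 genes passed, with 2 above and 3 below 0. Ulk1 had 31.8, 30.4 and 16.7 FPKM in Tshr+/+ 1, 2 and 3 and 23.7, 26.6 and 20.3 FPKM in Tshr-/- 1, 2 and 3. The groups overlapped fully, and the library Tshr+/+ 3 was lowest of all. Ulk2 (chromosome 11, 61775649 to 61855073, GRCm38) had 4.72, 4.91 and 4.98 FPKM in Tshr+/+ and 5.11, 6.42 and 6.06 FPKM in Tshr-/-. All Tshr-/- values lay above all Tshr+/+ values, though the nearest were 5.11 and 4.98 FPKM. The log2 fold change was 0.22 ± 0.11 (SE), with a 95% interval from -0.05 to 0.49. The groups overlapped once the libraries were scaled to equal totals.

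Of the kinase genes Ulk1 was the higher in 6 of 6 libraries, by 3.35-fold to 6.73-fold. The ratio was 5.42 ± 1.82 in Tshr+/+ and 4.05 ± 0.649 in Tshr-/- (SD, n = 3), and the ranges overlapped. Atg101, which stabilises ATG13, was the most abundant of the complex with 64.5, 69.6 and 52.9 FPKM in Tshr+/+ and 60.3, 66.5 and 47.6 FPKM in Tshr-/-. In each group the library numbered 3 was the lowest. Atg13 lay between 7.38 and 10.5 FPKM and Rb1cc1 between 4.28 and 6.66 FPKM.

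The VPS34 complex makes the lipid PI3P on the forming membrane. Pik3c3 encodes the lipid kinase VPS34 and Pik3r4 its regulatory subunit VPS15, Becn1 the scaffold beclin 1, and Atg14 and Uvrag encode subunits that occur in alternative forms of the complex. None of the 5 genes passed, with 2 above and 3 below 0. Becn1 was the most abundant, with 16.4, 16.9 and 14.0 FPKM in Tshr+/+ and 14.5, 15.9 and 14.4 FPKM in Tshr-/-. Pik3c3 lay between 5.35 and 6.91 FPKM and Pik3r4 between 1.87 and 2.31 FPKM. Atg14, which directs the kinase to autophagy, had 3.06, 2.91 and 1.48 FPKM in Tshr+/+ and 2.60, 2.03 and 1.68 FPKM in Tshr-/-. Its highest value was 2.07 times its lowest, the widest spread of the 39 genes, and the libraries numbered 3 were the lowest of both groups. Uvrag lay between 7.40 and 11.8 FPKM, with Tshr+/+ 1 the highest and the next library at 8.85 FPKM.

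Conjugation enzymes and proteins that supply or recognise the membrane made up 10 genes, 5 above and 5 below 0, none of which passed. Atg3 encodes the enzyme that transfers ATG8 proteins to lipid and was the most abundant, with 49.9, 45.4 and 42.6 FPKM in Tshr+/+ and 51.1, 47.7 and 44.8 FPKM in Tshr-/-. Each Tshr-/- value lay above the Tshr+/+ value of the same number, yet the groups overlapped. Atg7, the activating enzyme, lay between 17.1 and 23.7 FPKM and Atg10, the transfer enzyme for ATG12, between 0.922 and 1.70 FPKM. Of the complex that ATG12, ATG5 and ATG16L1 form, Atg12 lay between 19.0 and 25.6, Atg5 between 12.0 and 16.6 and Atg16l1 between 4.83 and 6.19 FPKM.

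Atg4b encodes the protease that trims ATG8 proteins. It had 8.71, 9.85 and 5.58 FPKM in Tshr+/+ and 7.52, 7.68 and 5.59 FPKM in Tshr-/-, so that both libraries numbered 3 stood apart at the low end. Atg9a, a lipid scramblase carried by the vesicles that seed the membrane, lay between 9.37 and 12.0 FPKM. Wipi1 and Wipi2 encode proteins that bind PI3P. Wipi1 was the most even of the 39 genes, with 12.9, 12.8 and 13.1 FPKM in Tshr+/+ and 13.1, 14.1 and 14.3 FPKM in Tshr-/-. It was higher than Wipi2, at 5.30 to 8.68 FPKM, in 6 of 6 libraries, by 1.49-fold to 2.47-fold.

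ATG8 proteins are the ubiquitin-like proteins that coat the autophagosome, and the cargo receptor p62, encoded by Sqstm1, binds them. Of these 6 genes 1 lay above and 5 below 0, and none passed. Gabarap (chromosome 11, 69991143 to 69994951) had 217, 243 and 188 FPKM in Tshr+/+ and 226, 266 and 165 FPKM in Tshr-/-, a log2 fold change of 0.002 ± 0.20 (SE). The values of the groups interleaved. Gabarap made up 65.1% of the summed mean level of the 5 ATG8 genes measured here, Map1lc3b 17.5%, Map1lc3a 9.05%, Gabarapl2 6.46% and Gabarapl1 1.92%. Gene length enters this order, as Gabarap was scaled by 1844 bases and Map1lc3b by 7517. Their fragments per library overlapped, from 6148 to 7423 for Gabarap and from 6269 to 9147 for Map1lc3b. The size of the Gabarap excess thus depends on these lengths.

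That order held within each of the 6 libraries for each neighbouring pair. Gabarap exceeded Map1lc3b by 3.03-fold to 4.25-fold, and Map1lc3b exceeded Map1lc3a by 1.77-fold to 2.09-fold. Map1lc3a and Gabarapl2 were closest, with Map1lc3a higher by 1.75-fold at most and in 6 of 6 libraries. Their ranges over all libraries met, since Map1lc3a reached down to 23.0 FPKM and Gabarapl2 up to 23.2 FPKM. Gabarapl1, at 4.97 to 8.95 FPKM, was lower than Gabarapl2 by 2.57-fold to 4.24-fold. Fragments that fit more than 1 gene of this family may have been divided between them in counting, which the sources used here do not describe.

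Map1lc3a encodes a form of LC3. It had 36.7, 37.6 and 25.2 FPKM in Tshr+/+ and 28.3, 30.7 and 23.0 FPKM in Tshr-/-. Each Tshr-/- value lay below the Tshr+/+ value of the same number, but Tshr+/+ 3 fell among the Tshr-/- values. Its log2 fold change was -0.26 ± 0.19 (SE). Without Tshr+/+ 3 it reached an unadjusted limma p under 0.05, as did 6 others of the 39 genes and 13.9% of all genes tested, and its adjusted p was then 0.296. In the limma fit with same-numbered libraries paired its unadjusted p was 0.040 (adjusted p = 0.827), and with array weights 0.0075 (adjusted p = 0.115). Map1lc3b, the form of LC3 most often used to follow autophagy, had 71.4, 66.7 and 45.1 FPKM in Tshr+/+ and 59.2, 62.7 and 45.8 FPKM in Tshr-/-.

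Sqstm1 (chromosome 11, 50199366 to 50210827) was the second most abundant of the 39 genes. It had 121, 118 and 66.1 FPKM in Tshr+/+ and 91.5, 96.5 and 69.6 FPKM in Tshr-/-. Tshr+/+ 1 and 2 were highest, and the libraries numbered 3 of both groups were lowest. Its log2 fold change was -0.20 ± 0.26 (SE), the largest error of the 39 genes. It was -0.48 without Tshr+/+ 3 (limma unadjusted p = 0.026, adjusted p = 0.310), -0.05 without Tshr+/+ 1 and -0.07 without Tshr+/+ 2. Without Tshr-/- 1, 2 and 3 in turn the log2 fold change was -0.26, -0.29 and -0.06.

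TFEB and TFE3 are related transcription factors that drive autophagy and lysosome genes when they enter the nucleus, and transcript levels do not report where the protein lies. Tfeb had 11.0, 13.5 and 17.0 FPKM in Tshr+/+ and 12.9, 19.8 and 13.1 FPKM in Tshr-/-. The highest value was in Tshr-/- 2, and the groups overlapped. Tfe3 lay between 8.31 and 12.0 FPKM, with its highest value in Tshr-/- 2 as well, the library in which Ctsk and Acp5 were highest; the part of that in these values was not tested. Tfeb exceeded Tfe3 in 6 of 6 libraries, by 1.28-fold to 1.66-fold. Their log2 fold changes were 0.13 ± 0.21 and -0.005 ± 0.16 (SE).

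Within mTORC1, mTOR is the kinase, RAPTOR (Rptor) recruits its substrates and MLST8 is a small subunit bound to the kinase domain. None of the 3 genes passed. Mtor had 3.59, 3.79 and 2.72 FPKM in Tshr+/+ and 3.50, 3.63 and 3.84 FPKM in Tshr-/-, with only Tshr+/+ 3 apart from the rest. Rptor lay between 1.41 and 1.88 FPKM. Mlst8 was the most abundant, with 7.53, 6.92 and 11.4 FPKM in Tshr+/+ and 6.48, 9.36 and 7.86 FPKM in Tshr-/-. The ratio of Mlst8 to Mtor ranged from 1.83 to 4.20 and was highest in Tshr+/+ 3.

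Upstream of mTORC1, RHEB is the small GTPase that activates the kinase, TSC1 and TSC2 form the complex that switches RHEB off, and NPRL2 and DEPDC5 belong to GATOR1, which switches off the Rag GTPases when amino acids are scarce. None of the 5 genes passed. Depdc5 (chromosome 5, 32863701 to 32994236) had 1.56, 1.54 and 1.47 FPKM in Tshr+/+ and 1.91, 1.76 and 1.91 FPKM in Tshr-/-. All Tshr-/- values were higher, and the log2 fold change was 0.18 ± 0.11 (SE) with a 95% interval from -0.08 to 0.45. Nprl2 (chromosome 9, 107542226 to 107545706) had 3.73, 3.96 and 4.11 FPKM in Tshr+/+ and 3.64, 3.12 and 3.38 FPKM in Tshr-/-. All Tshr-/- values were lower, by as little as the step from 3.73 to 3.64 FPKM, and the log2 fold change was -0.17 ± 0.11 (SE) with a 95% interval from -0.42 to 0.08.

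These subunits of 1 complex pointed in opposite directions, neither past the test. With libraries scaled to equal totals the groups of Nprl2 overlapped and those of Depdc5 did not. Nprl3, which encodes another GATOR1 subunit, fell below the filter.

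Tsc2 was even across libraries, from 5.64 to 6.57 FPKM, and exceeded Tsc1 by 2.49-fold to 4.54-fold in 6 of 6 libraries. Tsc1 had 2.33, 1.96 and 1.24 FPKM in Tshr+/+ and 1.70, 1.62 and 1.58 FPKM in Tshr-/-. Its Tshr+/+ values enclosed those of Tshr-/-. Rheb lay between 5.36 and 7.53 FPKM.

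Downstream, S6 kinase 1 (Rps6kb1) and the translation repressor 4E-BP1 (Eif4ebp1) are substrates of mTORC1, and eEF2 kinase (Eef2k), which slows elongation, is restrained by it. The 3 genes had log2 fold changes above 0 and none passed. Eif4ebp1 was abundant and even, with 31.9, 32.5 and 30.6 FPKM in Tshr+/+ and 34.1, 31.9 and 29.3 FPKM in Tshr-/-. Rps6kb1 had 2.51, 2.68 and 4.02 FPKM in Tshr+/+ and 3.43, 3.24 and 3.78 FPKM in Tshr-/-. Eef2k had 3.64, 4.30 and 5.83 FPKM in Tshr+/+ and 4.64, 5.55 and 5.27 FPKM in Tshr-/-. In both genes Tshr+/+ 3 was the highest library and Tshr+/+ 1 and 2 the lowest, so that the groups overlapped only through Tshr+/+ 3.

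The libraries numbered 3 stood apart in many of these genes. In 17 of the 39 genes, or 43.6%, both libraries numbered 3 lay below the other 4, beside 19.7% of all genes, and in 1 gene, Rps6kb1, both lay above, beside 17% of all genes. Among the 17 were 5 of the 6 genes of ATG8 proteins and p62, all but Gabarapl1. In Sqstm1 the libraries numbered 3 averaged 67.9 FPKM and the others 107 FPKM, a log2 difference of -0.63. The difference was -0.58 for Ulk1, -0.51 for Atg4b, -0.50 for Map1lc3b and -0.42 for Gabarap. It was 0.31 for Rps6kb1 and 0.30 for Mlst8. This pattern was noticed in the values and is given as a description, with no test.

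Scaling bears on that count. The deposited FPKM summed to 395049 in Tshr+/+ 3 and 348454 in Tshr-/- 3, against 422117 to 451384 in the others. With equal totals 5 of 39 genes, or 12.8%, were lowest in both libraries numbered 3 (all genes 7.33%), with equal fragment totals 8 (20.5%, all genes 9.70%), and with quantile normalization 13 (33.3%, all genes 15.7%). Highest in both were 9 of 39 with equal totals (all genes 38.7%), 8 with equal fragment totals (36.3%) and 2 with quantile normalization (21.6%). Atg101, Atg4b, Gabarap, Map1lc3b and Sqstm1 were lowest in both libraries numbered 3 under all 4 scalings. They are the 5 genes found with equal totals, and the share of all genes under all 4 scalings was not computed. Some markers, but not all, stood apart in the same libraries. The neutrophil sum was 109247 and 89191 FPKM in the libraries numbered 3 and between 115646 and 134882 in the others, with 2 of 9 genes lowest in both. As a share of all FPKM it was 27.7% and 25.6% there and 27.4% to 29.9% in the others, so that it was not lowest in both. The sum of 6 monocyte markers was 605 and 685 FPKM there and 526 to 667 FPKM in the others (0.153% and 0.197% of all FPKM, against 0.120% to 0.155%), and 4 of the 6 were highest in both, among them Ccr2 at 32.5 and 29.9 FPKM against 11.4 to 18.4 FPKM. Of 6 markers of B and plasma cells 4 were also highest in both, while their sum was 610 and 346 FPKM there and 181 to 606 FPKM in the others. The monocyte and B cell sums were thus not highest in both. Highest in both were 1 of 6 resident macrophage, 0 of 7 osteoclast, 1 of 6 T and NK cell and 2 of 6 erythroid markers. Of all genes as deposited, 17% were highest and 19.7% lowest in both. The part of cell composition in the pattern was not tested.

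**Figure D3:**
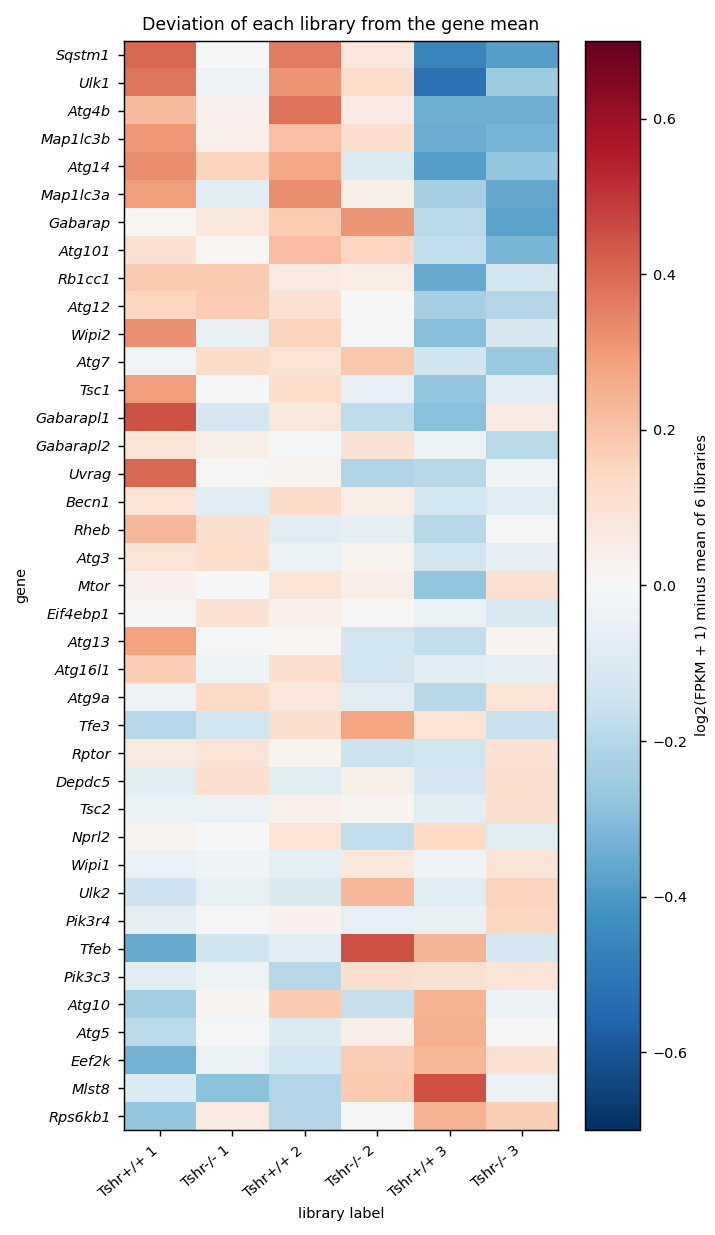
Deviation of log2(FPKM + 1) in each library from the gene's mean over 6 libraries (colour), for the 39 genes ordered by the difference between the libraries numbered 3 and the others, with same-numbered libraries side by side. The columns numbered 3 are blue from Sqstm1 and Ulk1 down through much of the map, and Rps6kb1 and Mlst8 at the bottom are red in Tshr+/+ 3.

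**Figure D4:**
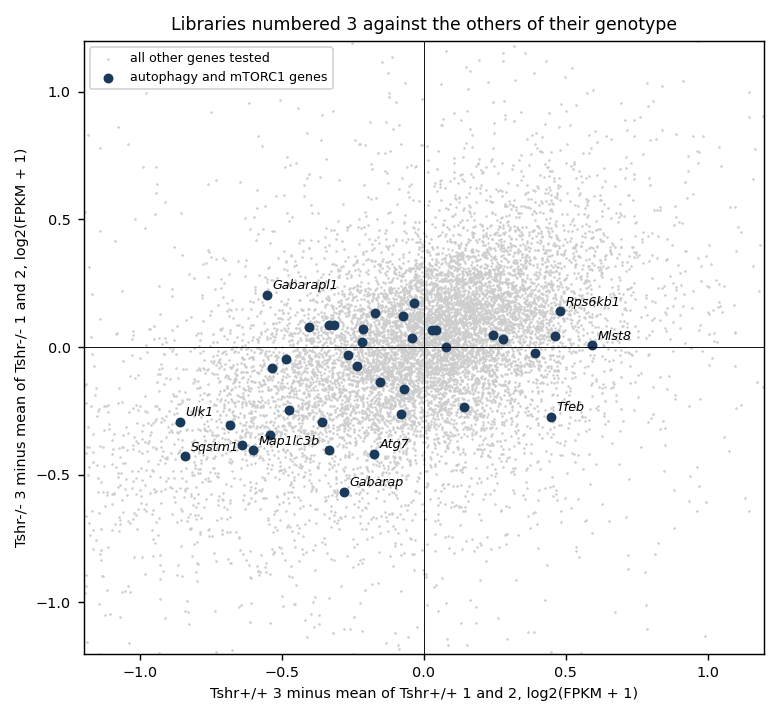
Difference on the log2(FPKM + 1) scale between the library numbered 3 and the mean of the other libraries of its genotype, Tshr+/+ on the horizontal and Tshr-/- on the vertical axis; dark points are the 39 genes, grey points the other genes tested (457 of 10874 lie outside the axes). Sqstm1, Ulk1 and Map1lc3b lie low on both axes, while Gabarapl1, Tfeb and Mlst8 are far from 0 in Tshr+/+ only or in opposite directions.

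The libraries numbered 3 did not behave alike for every gene. Tshr+/+ 3 lay below both other Tshr+/+ libraries in 27 of the 39 genes (all genes 42.0%), and Tshr-/- 3 below both other Tshr-/- libraries in 18 (all genes 38.2%). Over the 39 genes the median deviation from the others of the same genotype was -0.21 for Tshr+/+ 3 and -0.03 for Tshr-/- 3. Tfeb was 0.45 higher in Tshr+/+ 3 and 0.27 lower in Tshr-/- 3 on the log2 scale (deviations of 0.45 and -0.27), and Gabarapl1 had deviations of -0.55 and 0.21.

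Other genes of these pathways were read from 5 lists. Of 111 listed genes 100 were tested and limma called 0 (beside 0% of all genes), with 1 at an unadjusted p under 0.05. The lists' median log2 fold changes were -0.003 for 27 other autophagy genes, -0.06 for 27 other genes of mTORC1 and amino acid sensing, 0.10 for 15 genes of mTORC2, PI3K and AKT, -0.02 for 10 AMPK genes and -0.06 for 21 lysosome genes. Prr5l, which encodes a protein that binds mTORC2, had the smallest unadjusted p of these lists. Its level was 2.22 ± 1.04 FPKM (SD, n = 3) in Tshr+/+ libraries against 3.75 ± 0.819 FPKM in those labelled Tshr-/-, with a limma adjusted p of 0.9997. Rragc, a Rag GTPase gene, had 25.8, 24.6 and 20.6 FPKM in Tshr+/+ and 20.6, 20.1 and 19.3 FPKM in Tshr-/-. Among AMPK genes, the catalytic subunit gene Prkaa1 had 10.7 ± 1.07 and 12.2 ± 0.409 FPKM, and Stk11, which encodes the upstream kinase LKB1, had 84.3 ± 18.8 and 72.2 ± 10.6 FPKM. Prkaa2 fell below the filter.

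Atg2a, which encodes a lipid transfer protein of the growing membrane, was the most abundant of the other autophagy genes. It had 92.9, 91.2 and 20.2 FPKM in Tshr+/+ and 62.8, 64.5 and 24.6 FPKM in Tshr-/-. Both libraries numbered 3 stood far below the other 4, and within the other numbers Tshr-/- lay below Tshr+/+. Both libraries numbered 3 were lowest in 9 and highest in 7 of 27 other autophagy genes, and lowest in 11 and highest in 3 of 21 lysosome genes, against 19.7% and 17% of all genes tested. With equal totals they were lowest in 4 and highest in 11 of the former, and lowest in 4 and highest in 9 of the latter, against 7.33% and 38.7% of all genes. Ctsd, the lysosomal protease cathepsin D, was the most abundant lysosome gene at 221 ± 49.5 and 202 ± 58.8 FPKM (SD, n = 3).

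Upstream sequences from RefSeq (GRCm38.p6) matched 32 of the 39 genes, all but Pik3c3, Eif4ebp1, Atg12, Atg16l1, Rb1cc1, Becn1 and Map1lc3a. The 250 bases before the RefSeq start site are shown for the genes on which the comparisons above turn: Ulk2, Depdc5 and Nprl2, whose groups did not overlap, and Sqstm1, with the largest difference at number 3. Capitals mark GAGGAAGT, a motif of the myeloid factor PU.1, on either strand. The E-box CACGTG, bound by TFEB and TFE3, was also searched on both strands. The regions lie at chr11:61855093-61855342 on the minus strand (Ulk2), chr5:32863471-32863720 on the plus strand (Depdc5), chr9:107541959-107542208 on the plus strand (Nprl2) and chr11:50210821-50211070 on the minus strand (Sqstm1).
Ulk2: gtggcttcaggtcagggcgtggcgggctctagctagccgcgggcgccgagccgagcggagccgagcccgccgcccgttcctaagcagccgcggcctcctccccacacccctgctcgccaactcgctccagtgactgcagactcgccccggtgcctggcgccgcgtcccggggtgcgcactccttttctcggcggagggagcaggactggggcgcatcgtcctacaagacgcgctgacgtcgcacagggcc
Depdc5: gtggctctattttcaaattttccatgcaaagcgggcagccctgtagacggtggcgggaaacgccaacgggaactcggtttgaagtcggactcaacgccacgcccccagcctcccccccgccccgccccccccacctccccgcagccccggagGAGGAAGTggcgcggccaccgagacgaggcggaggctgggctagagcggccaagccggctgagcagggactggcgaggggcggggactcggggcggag
Nprl2: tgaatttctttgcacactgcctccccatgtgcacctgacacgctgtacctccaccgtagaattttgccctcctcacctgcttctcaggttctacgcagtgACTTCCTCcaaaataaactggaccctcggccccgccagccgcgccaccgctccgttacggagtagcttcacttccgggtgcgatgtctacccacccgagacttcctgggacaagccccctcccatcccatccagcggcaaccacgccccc
Sqstm1: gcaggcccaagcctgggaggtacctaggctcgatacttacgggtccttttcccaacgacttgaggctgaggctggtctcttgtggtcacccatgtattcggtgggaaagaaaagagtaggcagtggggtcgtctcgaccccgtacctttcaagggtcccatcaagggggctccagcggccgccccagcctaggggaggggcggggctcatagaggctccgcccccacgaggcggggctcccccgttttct

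The E-box was found in 5 of the 32 genes, or 15.6% (Atg3, Atg5, Atg7, Rheb and Eef2k), against 10.6% of 7580 tested genes with a sequence and 6.86% of all 27025 genes with one. In Atg3 it began 94 and 71 bases before the start site. The longer form TCACGTGA, which contains the E-box, was found in Atg3 alone (3.13%, tested genes 1.99%), and the palindromic CLEAR motif of 10 letters, which extends it by 1 base on each side, in 0 of the 32 (tested genes 0.712%). The motif GAGGAAGT was found in 2 genes, Depdc5 and Nprl2 (6.25%, tested genes 3.48%), beginning 98 bases before the start site in Depdc5 and lying on the opposite strand in Nprl2. These matches describe the letters of the window and were not tested for binding.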

How the data were processed

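RNA libraries from CD11b-positive cells were made with a SMARTer mRNA kit, per the labels' protocols. The authors deposited 1 table of FPKM values for 6 libraries. Per the submitters' processing notes the build is GRCm38 (mm10). Aligner, counting tool and use of strand: not given in the sources used here. Columns headed WT and HO were matched to the titles by genotype and number, HO being read as homozygous mutant. Each FPKM times its gene's length was divided by a step fitted in that library. The result was whole within 0.01 for 100% of the values checked, so fragments could be recovered. The check left out values of 0 and the highest fragment numbers, which were rounded in the same way. The deposited scaling implies a library size 0.939 to 1.12 times the sum of fragments.

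Genes reaching 1 FPKM in 3 or more libraries were tested as log2(FPKM + 1) using limma 3.58.1 (R 4.3.3), with genotype as the only term, trended empirical Bayes moderation, two-sided p-values and Benjamini-Hochberg adjustment over all genes at 0.05. The script was tested on simulated data. The titles number the libraries (as in mice 1) and do not say how many animals each holds, so p-values measure the spread between these libraries. Same-numbered libraries deviated together over 10913 genes (correlations of 0.243, 0.262 and 0.468), although Tshr+/+ 2 correlated more with Tshr-/- 1 (0.344). The labels state no shared batch. Pairing by number was used in an alternative fit only, and the main fit is unpaired. Alternatives were other pseudocounts, filters and scalings, robust moderation, array weights, voom, the pairing and each library left out. Leaving out the libraries labelled Tshr-/- 1 and 2, and rescaling the pattern at number 3 and the marker sums, were chosen after seeing the data.

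Named were Tshr, every member, and from each pathway list, since no gene passed, the most abundant gene and the 2 of smallest p; the text prints only some of these. Prkaa2, Nprl3 and single markers were picked from the lists after their values were seen. Members and lists were chosen with earlier results of these data known. In the GENCODE M21 annotation, 13 of the 39 members (Rb1cc1, Becn1, Atg14, Uvrag, Atg9a, Map1lc3b, Gabarapl1, Sqstm1, Rptor, Mlst8, Tsc2, Rps6kb1 and Eef2k) share exon bases with a gene on the opposite strand, whose fragments cannot be told apart without strand.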

Additional observations from a re-analysis of the deposited data

How the results depend on the processing

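None of the 39 members passed in any of the 16 alternatives run (29 members were tested under a mean of at least 5 FPKM, and the fit without the libraries labelled Tshr-/- 1 and 2 leaves 1 library in that arm, so that it says nothing on stability), and the smallest adjusted p among them ranged from 0.115, for Map1lc3a with array weights, to 1. Array weights called 24 of all genes and put 8 members and 2555 of all 10913 genes (23.4%) at an unadjusted p under 0.05, and leaving out each library in turn called between 0 and 2 of all genes (2 without Tshr-/- 3). Without Tshr+/+ 3 stood 7 members and 1488 of all genes at an unadjusted p under 0.05. The members' median log2 fold change ranged from -0.10, without the libraries labelled Tshr-/- 1 and 2, to 0.04 with equal totals, while that of all genes ranged from -0.02 to 0.03. With the replicate number as a block (paired libraries) 0 members and 0 of all genes passed, with 651 of all genes at an unadjusted p under 0.05 against 317 without it. Map1lc3a had the smallest adjusted p in that fit (limma, 0.827). Members with both libraries numbered 3 lowest numbered 17 as deposited, 5 with equal totals and 8 with equal fragment totals. Members with both highest numbered 1, 9 and 8 in the same order. Signs of single members, all short of the threshold, changed in up to 11 of 39, without Tshr+/+ 1; the cause was not tested. With 3 libraries per group, the absence of calls does not exclude differences that lie within the intervals given, and no limit of detection was computed.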
